A study of Rattus norvegicus with 8 samples.

Results

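The genes described here are 6 milk protein genes (Csn1s1, Csn1s2a, Csn2, Csn3, Lalba and Wap) and 4 genes of mammary epithelial cells (Epcam, Krt8, Krt14 and Cldn4), measured by RNA sequencing in rat cells from inguinal fat. They were taken by exact gene symbol from the deposited tables. Of the 10 genes, 9 were among the 14295 genes listed for adipose-derived stem cells (ASC) and 8 were among the 18236 listed for adipocytes (AD). Wap is not analysed here, nor is Csn3 in AD. The 10 genes were selected on their differences between diets in these same libraries, as a possible sign of mammary cells. Their differences are therefore given as a description, with no test.

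The donors were wild-type Wistar rats kept for 6 months on control food (group C) or on food high in fat and sucrose (group HFS). The precursors were released from inguinal fat by collagenase and cultured as ASC. AD libraries come from ASC that, once confluent, received insulin at 10.0 µg/mL, dexamethasone at 5 µM and IBMX at 0.5 mM for 3 days, then insulin alone for 7 days. Each of the 4 groups (ASC C, ASC HFS, AD C and AD HFS) has 2 libraries of 50 bp paired-end reads. The sources used here do not give the sex or age of the rats or the passage of the cultures. Nor do they say if libraries that share a group stem from different rats or cultures. The spread within a group may therefore be technical. The p-values below rest on that spread, with each gene's variance moderated across all genes of its table.

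Milk proteins are made by the luminal secretory cells of the mammary gland, and in rodents the inguinal mammary glands lie within the inguinal fat pad. Caseins are the main milk proteins. The alpha- and beta-caseins (Csn1s1, Csn1s2a, Csn1s2b and Csn2) bind calcium phosphate, and kappa-casein (Csn3) keeps the casein micelle in solution. Alpha-lactalbumin (Lalba) is the regulatory subunit of lactose synthase. Prolactin, acting through its receptor, the kinase JAK2 and the transcription factors STAT5A and STAT5B, drives casein transcription together with glucocorticoid and insulin. Krt8 is a keratin of luminal cells and Krt14 one of basal and myoepithelial cells. Epcam encodes an adhesion molecule found in most epithelia, and Cldn4 a tight junction protein.

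The casein promoters are shown because STAT5 binds sites of the form TTCNNNGAA. RefSeq (build GRCr8) gave a promoter for 8 of the 10 genes, all but Krt14 and Cldn4. Each line gives the 250 bases before the annotated start, read 5′ to 3′ on the gene's own strand. Capitals mark the motif TTCNNNGAA, which reads the same on both strands, and the run AATTAGCAT, searched on both strands. Csn1s1 lies on the minus strand (chr14:20638850-20639099), as do Csn1s2a (chr14:20574472-20574721), Csn1s2b (chr14:20545619-20545868) and Csn3 (chr14:20439831-20440080), and Csn2 lies on the plus strand (chr14:20601574-20601823).
Csn1s1: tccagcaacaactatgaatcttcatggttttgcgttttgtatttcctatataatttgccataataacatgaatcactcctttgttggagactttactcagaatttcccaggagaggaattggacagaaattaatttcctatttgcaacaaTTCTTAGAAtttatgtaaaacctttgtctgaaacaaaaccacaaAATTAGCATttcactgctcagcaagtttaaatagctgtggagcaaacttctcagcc
Csn2: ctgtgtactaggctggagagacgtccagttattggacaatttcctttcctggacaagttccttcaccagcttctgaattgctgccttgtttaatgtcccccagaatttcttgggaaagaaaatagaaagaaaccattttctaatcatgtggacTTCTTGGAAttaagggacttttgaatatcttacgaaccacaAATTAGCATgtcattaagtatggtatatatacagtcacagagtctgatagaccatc
Csn1s2a: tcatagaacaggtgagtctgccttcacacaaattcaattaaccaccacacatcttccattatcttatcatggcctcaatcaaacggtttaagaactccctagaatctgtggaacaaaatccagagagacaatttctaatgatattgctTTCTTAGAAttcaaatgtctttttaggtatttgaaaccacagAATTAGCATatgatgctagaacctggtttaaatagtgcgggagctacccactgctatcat
Csn1s2b: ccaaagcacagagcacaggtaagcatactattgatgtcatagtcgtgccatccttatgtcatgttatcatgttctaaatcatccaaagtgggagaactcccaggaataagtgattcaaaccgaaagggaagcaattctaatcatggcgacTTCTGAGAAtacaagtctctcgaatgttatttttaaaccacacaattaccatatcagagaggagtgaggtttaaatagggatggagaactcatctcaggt
Csn3: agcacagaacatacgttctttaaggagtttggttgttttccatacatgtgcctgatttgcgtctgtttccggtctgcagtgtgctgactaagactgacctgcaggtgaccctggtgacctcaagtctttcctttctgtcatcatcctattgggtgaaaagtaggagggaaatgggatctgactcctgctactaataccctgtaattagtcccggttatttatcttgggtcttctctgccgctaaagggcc

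The motif TTCNNNGAA began 100 bases before the start in Csn1s1 (TTCTTAGAA), 97 bases before it in Csn2 (TTCTTGGAA), 102 bases before it in Csn1s2a (TTCTTAGAA) and 100 bases before it in Csn1s2b (TTCTGAGAA). These letters were not in the same window of Csn3, Lalba, Wap, Epcam or Krt8. Of 33469 rat promoter windows of 250 bases, 2566 held the motif (7.67%). The run AATTAGCAT was the longest shared by the Csn1s1, Csn2 and Csn1s2a windows, at 56, 56 and 60 bases before the start. It was in 81 of the 33469 windows (0.242%) and did not overlap the first motif. Csn1s2b has no copy of it. A match of letters is a description of the sequence and not a measured binding site. RefSeq places Csn3, Csn1s2b, Csn1s2a, Csn2 and Csn1s1 in that order on chromosome 14, with Fdcsp, Odam and Prr27 between Csn3 and Csn1s2b, and Stath between Csn1s2a and Csn2.

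The deposited values are normalised and variance-stabilised, and the read counts behind them could be recovered exactly (100% of values came out whole within 1e-06). The ASC libraries held 992618 to 7290961 reads and the AD libraries 76083827 to 119555051. The second ASC HFS library was the shallowest, with 10.6% of listed genes at 0 reads against 1.62% to 3.95% in the other ASC libraries. Below, RPM is a gene's reads per 1000000 recovered reads of its library, and a normalised count is the recovered value scaled by the authors' size factors. A difference is the HFS minus C mean of log2(deposited value + 1), which is smaller than the log2 ratio of normalised counts for low genes. A gene is called when its adjusted p from limma-trend with Benjamini-Hochberg adjustment over all genes of its table is under 0.05.

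In ASC all 9 genes were higher in both HFS libraries than in both C libraries, which is part of how they were selected. Over all genes measured in ASC, 28.5% were higher in HFS without overlap and 32.5% lower. The median difference of the 9 genes was 1.31, against -0.044 over all genes. In AD 3 of the 8 genes had a positive and 5 a negative difference. In ASC each of the 5 milk protein genes had a larger HFS to C ratio than each of the 4 epithelial genes, although few reads stand behind the ratio of Csn2. In bulk RNA, more cells of a type and more RNA per cell cannot be told apart.

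Csn1s1 (alpha-S1-casein, ENSRNOG00000055596) had 217 and 576 reads in the ASC C libraries and 5858 and 1231 in the ASC HFS libraries. Its normalised counts were 201 and 258 in C (mean 229.6 ± 40.5, SD, n = 2) and 3653 and 4464 in HFS (4058 ± 573), a ratio of 17.7. The groups stood far apart, and the libraries within a group lay close together. The difference was 3.80, and leaving out each library in turn gave 3.66 to 3.94.

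Csn1s2a (ENSRNOG00000039331), a second calcium-binding casein, had 2 and 8 reads in C and 247 and 38 in HFS. The normalised counts were 1.85 and 3.59 in C and 154 and 138 in HFS, a difference of 2.17. Only 10 C reads stand behind the ratio. The ratio of pooled reads, scaled by the authors' size factors, was 50.2, with a 95% counting interval of 26.9 to 106. Such intervals cover counting error only, since the reads carry no molecular identifiers.

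Csn3 (ENSRNOG00000001951), kappa-casein, had 1 and 2 reads in C and 50 and 9 in HFS, or 0.926, 0.897, 31.2 and 32.6 normalised counts. The C libraries were thus at the level of single reads, and both HFS libraries stood close together. The pooled ratio was 34.6 (95% counting interval 11.3 to 173) and the difference 1.08.

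Lalba (ENSRNOG00000010811) had 25 and 113 reads in C and 1298 and 139 in HFS. Normalised, these were 23.2 and 50.7 in C (36.9 ± 19.4) and 809 and 504 in HFS (657 ± 216), a ratio of 17.8. The HFS libraries were both high but spread more than for Csn1s1. The difference was 2.94, and 2.63 to 3.25 with each library left out.

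Csn2 (ENSRNOG00000039326), beta-casein, stood near the detection limit throughout. It had 2 and 0 reads in the ASC C libraries and 4 and 5 in the ASC HFS libraries. The pooled ratio was 7.93, with a 95% counting interval from 1.64 to 75.4, and the difference was 0.53 (0.21 to 0.84 with each library left out). Of the reads of Csn1s1, Csn1s2a, Csn2 and Lalba together, Csn2 made up 0.0540% in the first HFS library (95% Wilson interval 0.0210% to 0.139%) and 0.354% in the second (0.151% to 0.826%). Csn1s1 made up 79.1% and 87.1% of the same reads. The genes differ in length, so these shares are of reads and not of transcripts.

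**Figure D1:**
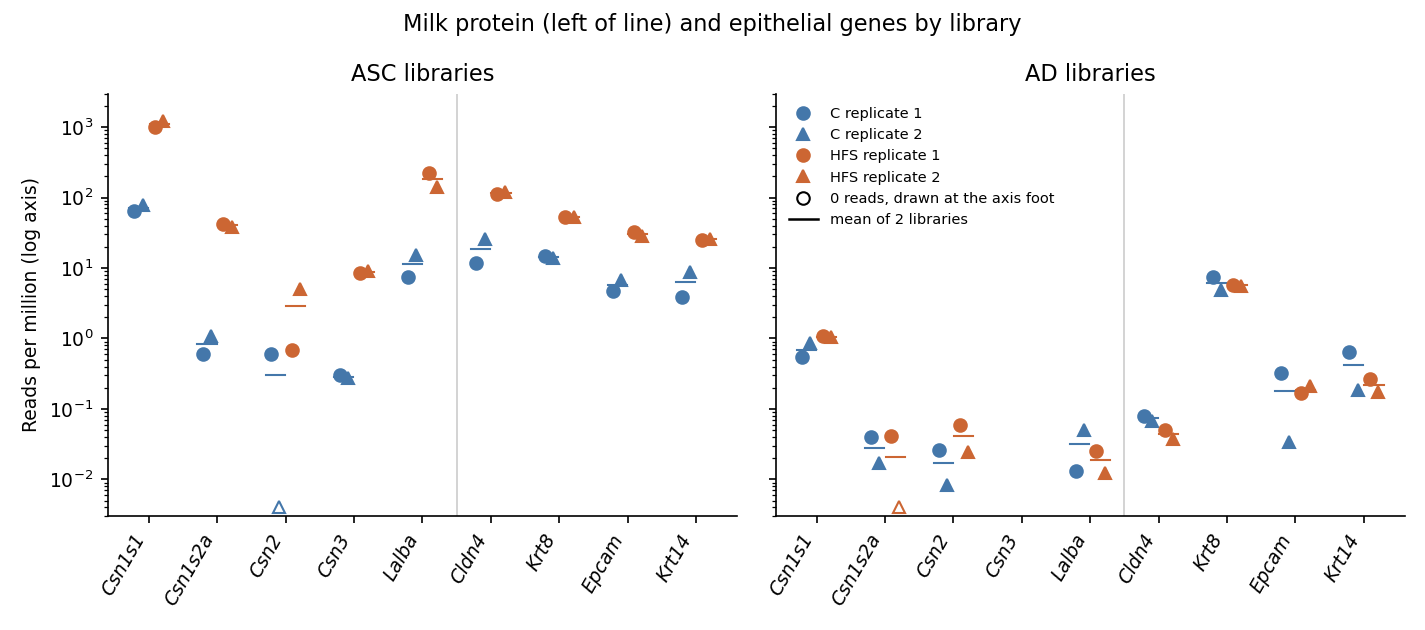
RPM (log axis) of each milk protein gene (left of the grey line) and epithelial gene (right of it) in the 4 ASC libraries and the 4 AD libraries. Circles and triangles are the first and second library of a group, bars are means of 2 libraries and open symbols stand for 0 reads. The ASC HFS libraries lie above both ASC C libraries for all 9 genes, while in AD the diets overlap for all but Csn1s1 and Cldn4.

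Among the epithelial genes Cldn4 (ENSRNOG00000001476) had the largest ratio. It had 40 and 186 reads in C and 663 and 120 in HFS. The normalised counts were 37.1 and 83.4 in C (60.2 ± 32.8) and 413 and 435 in HFS (424 ± 15.4), a ratio of 7.05 and a difference of 2.07. The C libraries differed from each other more than the HFS libraries did.

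Epcam (ENSRNOG00000015667) had 16 and 50 reads in C and 189 and 28 in HFS. Normalised, Epcam stood at 14.8 and 22.4 in C and 118 and 102 in HFS, 5.89-fold apart in the mean, with a difference of 1.27. The groups did not overlap.

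Krt8 (ENSRNOG00000009779) had the closest libraries of the 9 genes. Its normalised counts were 45.4 and 44.8 in C and 192.1 and 192.2 in HFS, from 49, 100, 308 and 53 reads. The ratio was 4.26 and the difference 1.31, and with each library left out it was 1.31 to 1.32.

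Krt14 (ENSRNOG00000003899), the basal keratin, had 13 and 64 reads in C and 145 and 26 in HFS. After scaling, Krt14 stood at 12.0 and 28.7 in C and 90.4 and 94.3 in HFS, a ratio of 4.53. The C libraries were the more spread, and both lay below both HFS libraries. Its difference was 1.08, and 0.87 to 1.30 with each library left out.

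Ratios taken within a library do not depend on its depth or scaling. In ASC the 4 milk protein genes listed in both tables (Csn1s1, Csn1s2a, Csn2 and Lalba) gave 2.08 and 1.74 reads per read of the 4 epithelial genes in C, and 5.68 and 6.22 in HFS. This ratio was thus higher in both HFS libraries than in either C library, which is a description, as the genes were selected on their diet differences. Csn1s1 and Lalba made up most of the milk protein reads, with 79.1% and 17.5% in the first HFS library and 87.1% and 9.84% in the second. Summed, the milk protein genes gave 73.7 and 95.6 RPM in C and 1266 and 1424 in HFS. The epithelial genes gave 35.3 and 54.9 in C and 223 and 229 in HFS. Krt14 reads per Krt8 read were 0.265 and 0.640 in C and 0.471 and 0.491 in HFS, so the HFS libraries lay between the C libraries for this basal to luminal keratin ratio. Cldn4 reads per Epcam read were 2.5 and 3.72 in C and 3.51 and 4.29 in HFS, which overlap. Lalba reads per Csn1s1 read were 0.115 and 0.196 in C and 0.222 and 0.113 in HFS, with the lowest and highest values both in HFS.

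Krt8 forms filaments with Krt18, its partner in simple epithelia. Krt18 had 21, 52, 128 and 19 reads in the ASC libraries (C, C, HFS, HFS), and Krt8 reads per Krt18 read were 2.33 and 1.92 in C and 2.41 and 2.79 in HFS. In AD, Krt18 had 13, 8, 12 and 16 reads beside 571, 573, 681 and 456 of Krt8. The AD libraries gave 43.9 and 71.6 Krt8 reads per Krt18 read in C and 56.8 and 28.5 in HFS. Every AD library had a higher ratio than every ASC library, and the diets overlapped in AD. Both keratins have processed pseudogenes, so reads shared with such copies make these ratios uncertain.

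**Figure D2:**
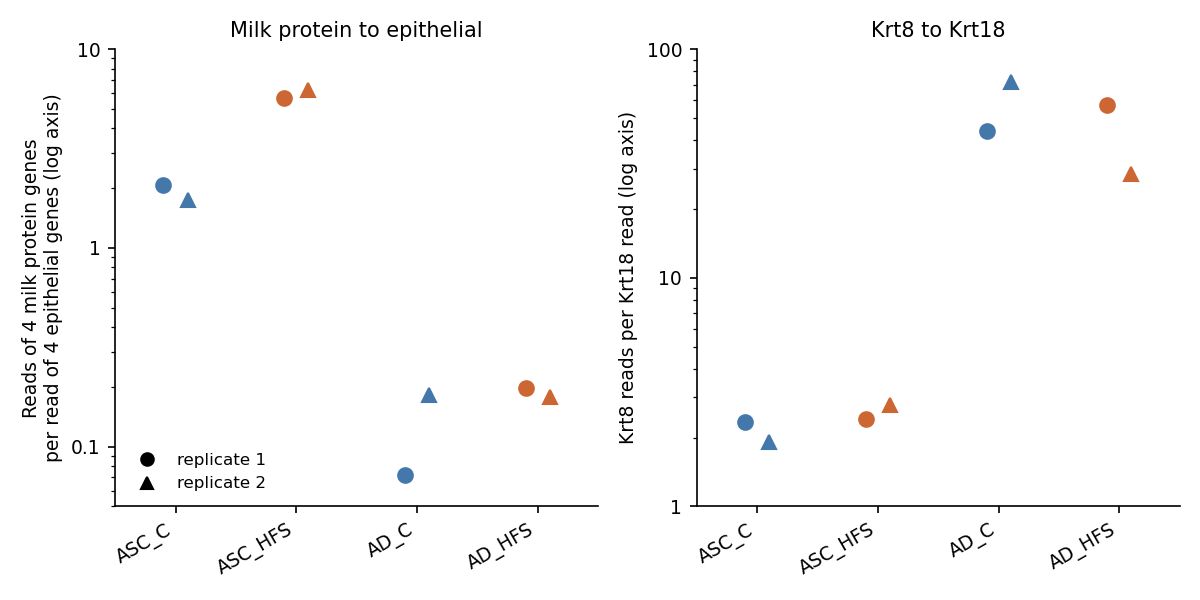
Reads of the 4 milk protein genes per read of the 4 epithelial genes (left, log axis) and Krt8 reads per Krt18 read (right, log axis) in each of the 8 libraries, with circles and triangles for the first and second library of a group. Milk protein reads per epithelial read run from 1.74 to 6.22 in ASC and from 0.0722 to 0.198 in AD, and Krt8 to Krt18 runs from 1.92 to 2.79 in ASC and from 28.5 to 71.6 in AD.

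The AD libraries held few milk protein reads despite their depth. The tables were normalised separately, so levels are given across them only as RPM and were not tested. Csn1s1 had 41 and 101 reads in AD C and 131 and 84 in AD HFS, or 0.539, 0.853, 1.10 and 1.03 RPM, against 65.0 to 1240 in ASC. Its AD normalised counts were 51.9 and 82.0 in C and 107 and 101 in HFS, a difference of 0.26 without overlap. Csn1s2a had 3, 2, 5 and 0 reads, Csn2 had 2, 1, 7 and 2, and Lalba had 1, 6, 3 and 1. For comparison, 3 reads are 0.0251 to 0.0394 RPM in these libraries.

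Of the epithelial genes in AD, Krt8 kept a level of 4.84 to 7.50 RPM, with a difference of -0.063 and overlapping diets. Krt14 had 49 and 22 reads in C and 32 and 14 in HFS, with a difference of -0.19 and overlap. Epcam had 25 and 4 reads in C and 20 and 17 in HFS, with the C libraries on both sides of the HFS libraries. Cldn4 had 6 and 8 reads in C and 6 and 3 in HFS. Its normalised counts were 7.60 and 6.49 in C and 4.89 and 3.59 in HFS, so it was the 1 gene of the 8 that was lower in HFS without overlap (23.5% of all AD genes), as Csn1s1 was the 1 that was higher (24.2%). The median difference of the 8 genes in AD was -0.055, against -0.0087 over all genes.

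Genes of the gland beyond the 10 were examined in 5 lists holding 84 genes, of which 63 were measured in ASC. There, 15 of the 63 were called higher in HFS and 2 lower, beside 9.41% and 9.7% of all genes (19.1% together), and their median difference was 0.34. Of the 15 called higher, 7 were on the list of the prolactin pathway and lactogenic regulators (13 measured), and the rest were spread over the milk and epithelial lists. Of the 46 not called, 14 had under 20 reads in all. Depth and libraries bear on these calls: limma-trend made 0 calls of any kind when any 1 ASC library was left out, with 10 to 23 of the 63 higher at an unadjusted p under 0.05, while limma-voom, a weighted fit to the recovered reads, called 20 of the 63 higher with all libraries and 6 to 17 with 1 left out. With all libraries thinned to the depth of the shallowest, limma-voom called 1 of the 63 higher and 1 lower. At full depth it called 20 of the 63 higher and 3 lower, beside 1701 higher and 1500 lower of all 14295 ASC genes.

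Among 14 measured milk and milk fat globule genes, 2 rose and 2 fell (14.3% each, beside 9.41% higher and 9.7% lower of all ASC genes). Btn1a1, the butyrophilin of the milk fat globule membrane, had 3 and 24 reads in C and 89 and 10 in HFS (normalised counts 2.78, 10.8, 55.5 and 36.3), a difference of 0.96 ± 0.23 (SE) with an adjusted p of 0.0117 by limma-trend. Csn1s2b, whose promoter is printed above, had 0 reads in both C libraries and 7 and 5 in HFS, at least 7.05-fold higher against a floor of 3 reads over the C group (adjusted p = 0.0427, limma-trend). It is a paralog of Csn1s2a, and how reads common to both were counted is not given in the sources used here. Spp1, osteopontin, which milk contains but which many other cells also make, fell by 2.63 on the log2 scale (adjusted p = 0.000113, limma-trend), from 4744 and 3905 normalised counts to 656 and 624. Wfdc18, a whey acidic protein family gene, had 23 and 56 reads in C and 5 and 0 in HFS, and fell by 0.92 (adjusted p = 0.0143, limma-trend). The direction of change was thus not shared across this list of milk and milk fat globule genes. Xdh, xanthine dehydrogenase, which coats the milk fat globule and is also active in other tissues, had 1153, 974, 683 and 577 normalised counts and did not pass (difference -0.70, adjusted p = 0.0959, limma-trend).

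Of 17 measured luminal genes 2 rose and none fell (11.8% higher, near the 9.41% of all ASC genes called higher). Spint2, a protease inhibitor of epithelia, had 81.5 and 83.4 normalised counts in C and 236 and 207 in HFS, a difference of 0.99 (adjusted p = 0.00929, limma-trend). Krt18 had 19.4 and 23.3 in C and 79.8 and 68.9 in HFS, a difference of 0.84 (adjusted p = 0.0148, limma-trend). Krt7, another keratin of simple epithelia, lay the other way, with 68.5 and 52.9 in C and 38.0 and 10.9 in HFS, and did not pass (adjusted p = 0.0787, limma-trend).

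Of 10 measured basal and myoepithelial genes 2 rose (20%, beside 9.41% of all ASC genes called higher). Sfn, the epithelial 14-3-3 sigma protein, had 21.3 and 61.0 normalised counts in C and 133 and 97.9 in HFS (difference 0.90, adjusted p = 0.0270, limma-trend). Jag2, a Notch ligand, had 10.2 and 17.0 in C and 51.1 and 58.0 in HFS (difference 0.82, adjusted p = 0.0181, limma-trend). Krt5, the usual partner of Krt14, had 1, 6, 1 and 3 reads, and Krt17 had 14, 14, 5 and 0. Neither passed (adjusted p of 0.662 and 0.148, limma-trend), and Krt5 reads were thus few where Krt14 had 13 to 145.

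Of 10 measured junction genes 2 rose (20%, beside 9.41% of all ASC genes called higher). Cdh1, E-cadherin, had 1 and 26 reads in C and 59 and 14 in HFS (normalised counts 0.926, 11.7, 36.8 and 50.8), a difference of 0.99 (adjusted p = 0.0123, limma-trend). Ppl, periplakin, a linker of desmosomes to keratin filaments, had 21.3 and 30.5 normalised counts in C and 94.8 and 65.3 in HFS (difference 0.80, adjusted p = 0.0242, limma-trend).

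The prolactin pathway and lactogenic regulator list had the most calls of the 5, with 7 of 13 measured genes called, all 7 higher in HFS. This was 53.8%, beside 9.41% of all ASC genes called higher. Of the 13 differences 10 were positive and 3 negative, with a median of 0.80. Stat5a had 151 and 113 normalised counts in C and 346 and 446 in HFS, a difference of 1.24 ± 0.25 (SE) with an adjusted p of 0.00449 by limma-trend. Stat5b had 81.5 and 105 in C and 209 and 199 in HFS (difference 0.80, adjusted p = 0.0279, limma-trend). Both transcription factors were higher in both HFS libraries than in either C library.

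STAT5 induces several feedback inhibitors of cytokine signalling, and 3 of them rose. Cish had 52.8 and 77.1 normalised counts in C and 320 and 258 in HFS (4.44-fold in the mean, adjusted p = 0.00101, limma-trend). Socs1 had 28.7 and 48.4 in C and 185 and 250 in HFS (difference 1.56, adjusted p = 0.000780, limma-trend). Socs2 had 13.0 and 17.9 in C and 42.4 and 79.8 in HFS (difference 0.82, adjusted p = 0.0252, limma-trend). As background, these inhibitors are also induced by other cytokines and by growth hormone in many cell types.

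Insr, the insulin receptor, had 13.0 and 17.9 normalised counts in C and 81.7 and 58.0 in HFS (difference 0.94, adjusted p = 0.00979, limma-trend). Id2, an inhibitor of helix-loop-helix factors, was 1.95-fold higher (adjusted p = 0.0402, limma-trend). Jak2 had 474, 346, 398 and 508 normalised counts and did not pass (adjusted p = 0.776, limma-trend). Nfib lay the other way, with 335 and 84.7 normalised counts in C and 56.1 and 94.3 in HFS, which overlap. Its difference of -0.85 did not pass by limma-trend (adjusted p = 0.121). By limma-voom Nfib was called lower (adjusted p = 0.0363), the 1 gene of the list so called, beside 8 called higher. Elf5, the transcription factor that directs alveolar cells, had 13 and 23 reads in C and 11 and 3 in HFS (adjusted p = 0.809, limma-trend), overlapping between diets. The prolactin receptor gene, Prlr, is not analysed here in ASC.

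**Figure D3:**
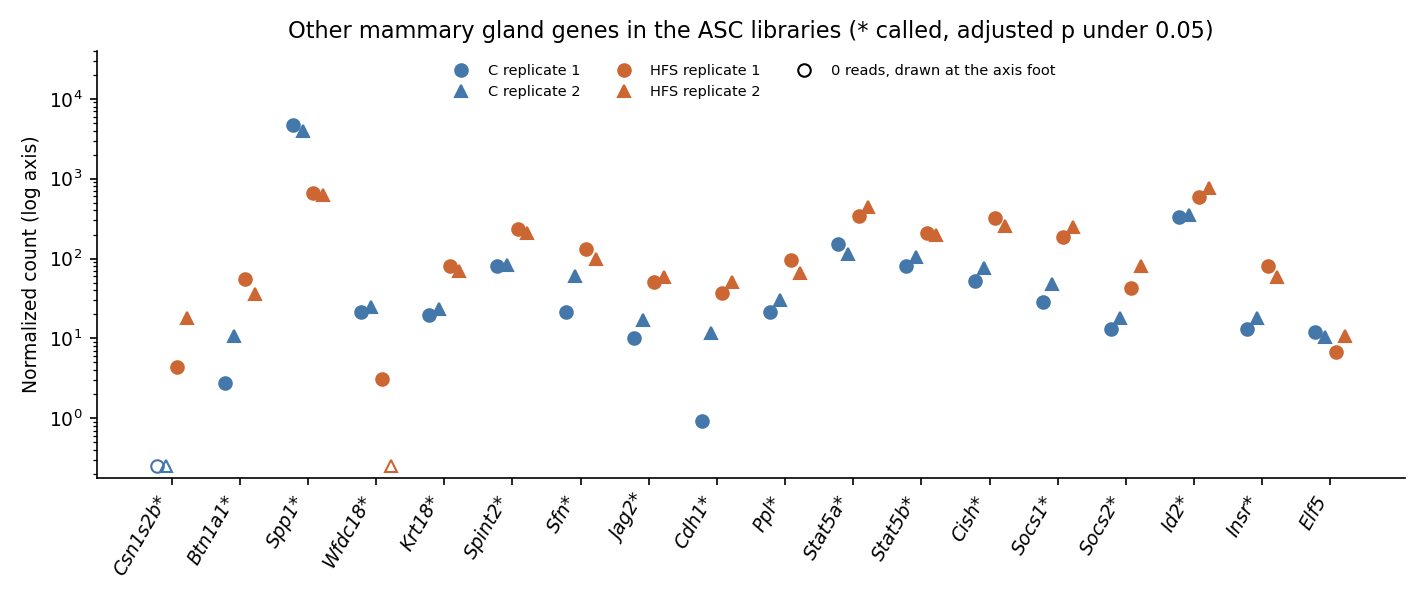
Normalised counts (log axis) of the 17 genes called in ASC from the 5 lists of other mammary gland genes (asterisk: adjusted p under 0.05, limma-trend), and of Elf5, which was not called, in each ASC library. Circles and triangles are the first and second library of a diet group and open symbols at the foot stand for 0 reads. HFS libraries lie above C libraries for 15 of the 17 and below them for Spp1 and Wfdc18.

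A list of 17 genes lying around the caseins was examined too. Of 10 measured, Csn1s2b included, 3 rose (30%, beside 9.41% of all ASC genes called higher), with a median difference of 0.44. Jchain, which joins antibody chains in plasma cells, had 4 and 9 reads in C and 201 and 42 in HFS, a ratio of 35.9 and a difference of 2.04 (adjusted p = 6.19e-05, limma-trend). Rufy3, a regulator of neuronal and lysosomal transport, was 2.33-fold higher (adjusted p = 0.0291, limma-trend). In AD 0 of the 10 measured neighbours were called by limma-trend or limma-voom, 1 had an unadjusted p under 0.05, and their median difference was -0.084.

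Markers of other cell types moved with diet in the same ASC libraries, where 9.41% of all genes were called higher and 9.7% lower. All 13 macrophage markers were measured and 9 rose, with a summed level of 1082 and 1193 RPM in C and 3216 and 3369 in HFS. C1qc, a complement subunit made by macrophages, was 15.9-fold higher (adjusted p = 1.62e-05, limma-trend). Of 9 measured endothelial markers 7 rose, with sums of 302 and 630 in C and 1270 and 1281 in HFS. Of 8 measured adipocyte markers 4 rose, with sums of 862 and 3116 in C and 2930 and 2171 in HFS, which overlap. B and plasma cell markers summed to at most 1.78 in C and to 39.3 and 45.3 in HFS, with 3 of 8 measured, 1 of them at 0 reads in both C libraries, and Jchain the 1 that rose. The part of these cells in the milk protein result was not tested.

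Skin keratinocytes also express Krt14. Of 17 skin keratinocyte and hair markers 6 were measured in ASC and 0 were called by limma-trend or limma-voom, and 1 had an unadjusted p under 0.05. Their sums were 21.6 and 23.5 RPM in C and 29.9 and 29.2 in HFS. Of the 6, 4 were higher in both HFS libraries than in both C libraries, beside 28.5% of all ASC genes. Mesothelium also expresses Krt8 and Krt18, and its markers summed to 71.3 and 81.3 in C and to 14.7 and 12.1 in HFS. Of 5 measured of 10, 2 fell (40%, beside 9.7% of all ASC genes called lower), Msln and Cldn15, and these carry the sum. Gpm6a (0 and 1 reads in C, 13 and 1 in HFS) and Rspo1 (difference 0.080) were not called. Msln, mesothelin, had 139 and 207 reads in C and 29 and 0 in HFS (difference -1.78, adjusted p = 0.00125, limma-trend). Cldn15, a claudin, had 73 and 346 reads in C and 10 and 4 in HFS. The part of skin or mesothelial cells in the keratin levels was not tested.

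The labelled cell type was checked against mesenchymal progenitor markers, all 11 of which were measured in both tables. They summed to 31354 and 36407 RPM in ASC C and 57614 and 61896 in ASC HFS. Pi16, Cd34 and Dpp4 rose with HFS and Lum, Thy1 and Pdgfra fell, so this list moved both ways (3 genes each). These were 27.3% each way, beside 9.41% of all ASC genes called higher and 9.7% lower.

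**Figure D4:**
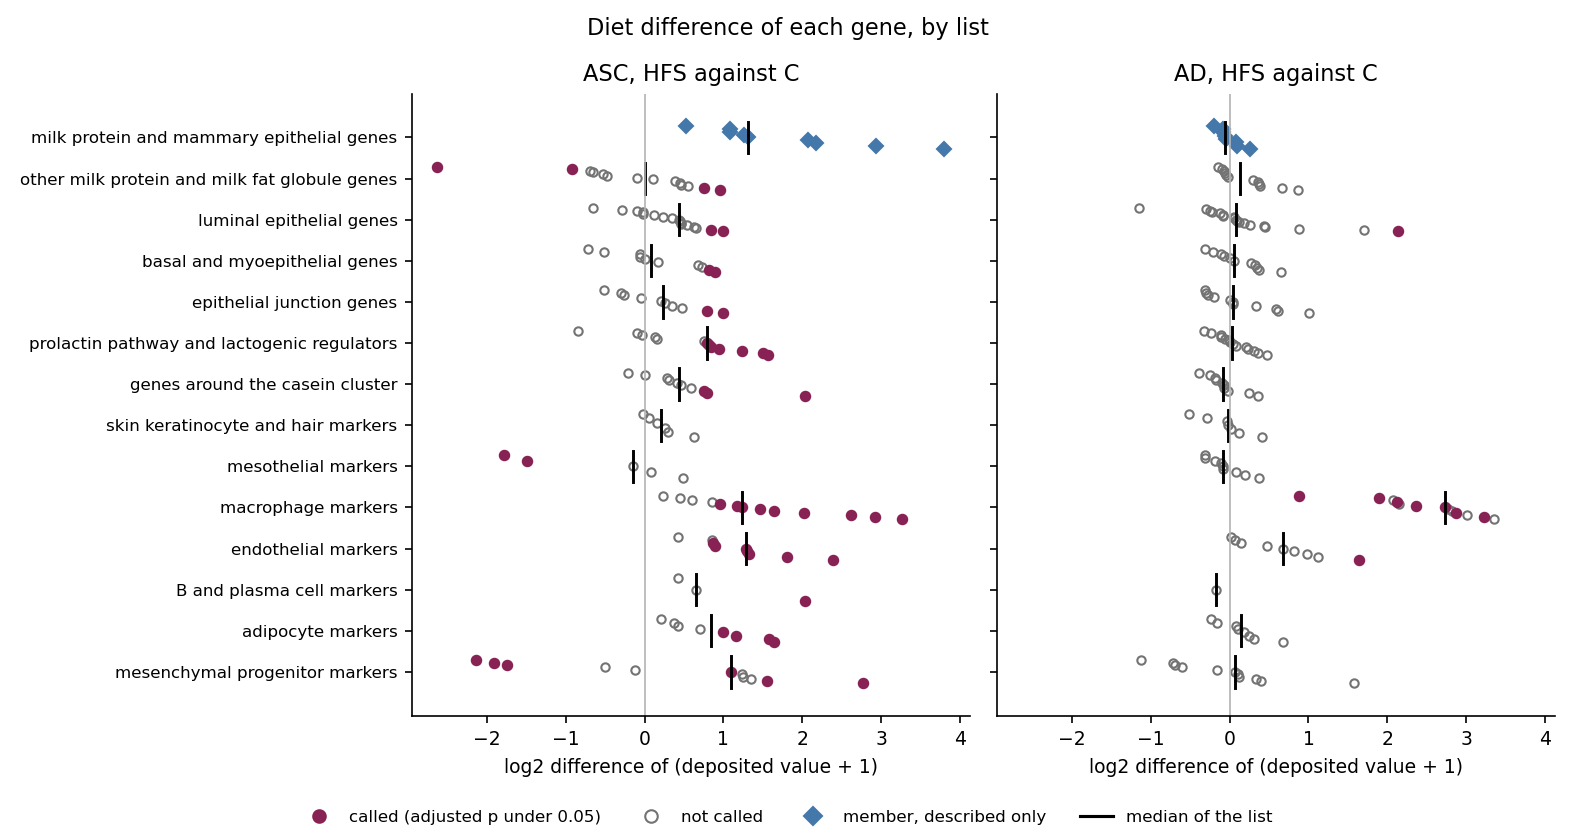
HFS minus C difference of log2(deposited value + 1) for every measured gene of each list, in ASC (left) and AD (right). Blue diamonds are the milk protein and epithelial genes, which are described only, filled circles are called genes (limma-trend), open circles are genes not called, and black bars are list medians. The blue median is 1.31 in ASC and -0.055 in AD, while the macrophage median is 1.24 in ASC and 2.74 in AD.

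In AD, 66 genes of the 5 mammary gland lists were measured and 1 was called, beside 1.31% of all AD genes called higher and 0.0329% lower (1.34% together). It was Prom1 (prominin-1, an apical membrane protein of luminal and many stem cells). Prom1 had 48.1 and 161 normalised counts in C and 958 and 968 in HFS, a difference of 2.13 (adjusted p = 0.0472, limma-trend). That call is lost when either HFS library is left out (0 calls by limma-trend) and when they are averaged to 1 sample, and these lists had 24 or 27 genes called higher without the first or the second C library. The AD HFS pair was the closest of the 4 groups, with a mean chi-square per gene of 1.76 against 5.09 to 27.5. Stat5a (3040 and 3657 normalised counts in C, 4467 and 4242 in HFS) and Stat5b (2456, 2263, 3025 and 2944) did not pass in AD, with differences of 0.36 and 0.32 (adjusted p of 0.273 or more, limma-trend). Prlr had 16 and 27 reads in C and 72 and 63 in HFS (adjusted p = 0.125, limma-trend). Elf5 had 28, 49, 52 and 40 reads (adjusted p = 0.756, limma-trend). Macrophage markers rose in AD too, 7 of 13 with sums of 420 and 801 in C and 3756 and 3758 in HFS by limma-trend. With limma-voom 3 of the 13 were called, and without either AD HFS library neither tool called any AD gene. The 4 milk protein genes together stood at 0.618 and 0.929 RPM in C and 1.22 and 1.07 in HFS. Of the endothelial markers 1 of 9 was called (Tie1). The skin, mesothelial, B and plasma cell, adipocyte and mesenchymal lists had 0 AD calls by limma-trend or limma-voom, with 8 of their 36 genes at an unadjusted p under 0.05.

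The level of the summed milk protein genes (Csn3 in ASC alone) over the 8 libraries, as log2(RPM + 1), was followed most closely by 6 of the 11409 genes ranked, which had at least 100 reads and were on none of the lists. They were Havcr2 (r = 0.999), Aldh1a3 (0.999), Cxcl1 (0.999), Irf4 (0.998), Napsa (0.998) and RT1-Bb (0.998). The libraries share their cell type and diet, so r describes the pattern and carries no test. Havcr2 encodes the immune receptor TIM-3, Aldh1a3 a retinaldehyde dehydrogenase, Cxcl1 a neutrophil chemokine, Irf4 a transcription factor of lymphocytes and macrophages, Napsa an aspartic protease and RT1-Bb a class II histocompatibility chain. Aldh1a3 had 11.7 and 17.4 RPM in ASC C, 109 and 128 in ASC HFS and 0.0493 to 0.145 in AD. RT1-Bb had 94.6 and 136 in ASC C, 1186 and 1346 in ASC HFS and 0.736 to 2.54 in AD.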

How the data were processed

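The data are RNA sequencing of 8 libraries, 2 per group. The authors used FastQC, STAR, featureCounts and DESeq2, with the builds mRatBN7.2 and rn7, per the submitters' processing notes. Versions are not given in the sources used here, and the labels name both polyA RNA and a ribosomal depletion kit. The deposited values are a signal: they behave as the authors' variance-stabilised values taken out of log2, with a lowest value of 34.7 in the ASC table and 107 in the AD table. With lowest value m, the normalised count of value v is (v − m) squared over v, and dividing by the value of 1 read gave whole reads.

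Each table was tested by limma-trend in R 4.3.3 with limma 3.58.1, on log2(deposited value + 1). A minimum mean of 10 removed no gene, and each fit was left with 2 residual degrees of freedom. limma-trend drew each gene's variance towards a trend over all genes, so its p-values do not rest on a gene's own spread alone. Counting intervals are at 95%, exact for ratios of pooled reads and Wilson for shares. The tables were fitted separately, so no difference between ASC and AD was tested. On simulated data the test recovered 41% of 100 genes changed 2-fold and 97% of 100 changed 4-fold in ASC (2 of 14095 unchanged genes called), and 83% and 100% in AD (11 of 18036). The simulation used 1 spread per table, taken from the C libraries, for all genes and both diets. The real groups differed in spread, with a mean chi-square per gene of 12.5 in ASC C, 5.09 in ASC HFS, 27.5 in AD C and 1.76 in AD HFS. These rates may therefore not hold for the real libraries.

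The genes, lists and tests were chosen with earlier results of these data known. Genes named from a list are up to 4 called per direction with the largest difference, with Stat5a, Stat5b, Prlr and Elf5 named whatever their values, and the genes most like the milk protein sum are the first 6 by r. Socs2, Id2, Jak2, Nfib, Xdh, Krt5, Krt7 and Krt17 were named after their values were seen, and the run AATTAGCAT was found in the sequences printed. The labels name no animal or batch that same-numbered libraries share, and their deviations correlated at -0.123 in ASC and 0.00141 in AD over 2 pairs, so they were not treated as pairs. Alternatives were other pseudocounts (0.5 and 5), filters, normalisations, a replicate block, limma-voom on recovered reads, thinning, and leaving out each library.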

Additional observations from a re-analysis of the deposited data

Results flagged for a closer look

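Among the genes described, those on the lists and those most like the milk protein sum, 18 had both HFS libraries on one side of both C libraries in ASC and on the other side in AD. Without overlap, 28.5% of all ASC genes were higher in HFS and 32.5% lower, and 24.2% and 23.5% of all AD genes. The share of all genes lying opposite in ASC and AD is not given here, so the 18 are a description only. The difference between ASC and AD was not tested, since the tables were normalised separately. Differences are HFS minus C on the log2(deposited value + 1) scale. The lowest value is 34.7 in ASC and 107 in AD, so low genes are shrunk by different amounts in ASC and AD. Cldn4 was 2.07 in ASC and -0.082 in AD, where it had 3 to 8 reads (ratios of normalised counts 7.05 and 0.601). Sfn was 0.90 in ASC and -0.068 in AD. Socs1 was 1.56 in ASC and -0.11 in AD. Jchain was 2.04 in ASC and -0.17 in AD. Havcr2 was 1.32 in ASC and -0.050 in AD, where it had 6 to 11 reads. Adipoq, the adipocyte hormone adiponectin, was 1.64 in ASC and -0.17 in AD. Spp1 ran the other way, -2.63 in ASC and 0.66 in AD, as did Thy1, a surface marker of mesenchymal cells, at -1.91 in ASC and 0.34 in AD. The other 10 were called by limma-trend in neither table. Ehf was 0.62 in ASC and -0.13 in AD, Itgb4 0.73 and -0.32, Slc4a4 0.41 and -0.38, Cebpa 0.37 and -0.24, and Sbsn 0.16 and -0.51. Lower in ASC and higher in AD were Xdh at -0.70 and 0.29, Lpo at -0.47 and 0.87, Pkp1 at -0.51 and 0.59, Mal2 at -0.29 and 0.45, and Lamb3 at -0.054 and 0.33.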

How the results depend on the processing

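The 9 ASC differences of the milk protein and epithelial genes stayed above 0 in all 134 values from 15 alternative settings, and 35 of them moved by more than the spread between libraries. In AD, 21 of 120 such values moved so far, and 49 of the 120 lay above 0. Settings on recovered reads or counts lack the floor of the deposited values, so low genes differ more there. Csn1s2a in ASC was 2.17 as reported and 5.54 by limma-voom, so some moves reflect a change of scale. The ASC sign was largely fixed beforehand, since the 9 genes were selected on this diet difference and the diets did not overlap. Leaving out any library could not reverse it, so the constant ASC sign is not evidence of robustness. Of all tested genes named, Havcr2 in AD alone reversed, to 0.14 with thinned reads.

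In ASC, 1345 genes were called higher and 1386 lower. Thinning all libraries to the shallowest gave 228 and 137 with limma-voom, and 1 and 1 of the other mammary gland genes (15 and 2 as reported). Leaving out 1 library gave 0 to 1552 higher and 0 to 2070 lower, and 0 to 17 and 0 to 5 of the mammary gland genes. The 0s are limma-trend's (1065 to 2018 higher at an unadjusted p under 0.05), and limma-voom, added after seeing the data, gave 772 and 322 without the first HFS library and 821 and 585 without the second. The replicate block, which pairs libraries by number, gave 5 mammary gland genes lower and the crossed pairing, chosen after seeing the data, 7.

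In AD, 238 genes were called higher and 6 lower. The replicate block gave 599 and 62, with 4 mammary gland genes higher in place of 1. A common upper quartile gave 92 and 3, log2 of recovered counts 110 and 2, limma-voom 147 and 3, thinning 73 and 2, and HFS libraries averaged to 1 sample (added after seeing the data) 0 and 0, with 766 and 91 at an unadjusted p under 0.05. Under these 5 and under quantile normalisation 0 mammary gland genes were higher. Leaving out 1 library gave 0 to 5018 higher and 0 to 4812 lower, and 0 to 27 and 0 to 14 of the mammary gland genes. With limma-voom it was 3937 and 3422 without the first C library, 4655 and 4731 without the second (24 and 26 mammary gland genes higher), and 0 without either HFS library. The cause was not tested. Depth limits Csn2, Csn3 and Csn1s2a in ASC C and all milk protein genes but Csn1s1 in AD, which rest on 0 to 8 reads a library.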
